A study of Mus musculus with 8 samples.

Results

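Chromatin immunoprecipitation followed by sequencing of the glucocorticoid receptor (GR) in mouse liver gave 51431 merged sites over 6 libraries, and 8097 of them held a peak in all 6 lists. Of these constant sites, 1998 (24.7%, or 3.88% of all merged sites) had a centre more than 1 kb from any annotated transcript start and overlapped no FOXO1 region. They are called FOXO1-free distal sites here and were selected on the measured peak positions alone, so that their presence in every library and the absence of a FOXO1 peak are descriptions and not findings. Only the centre had to be distal. The merged sites were 358 to 27651 bp wide, and some, such as a site of 6252 bp in Gadd45g, reach over a transcript start. The remaining 6099 constant sites were 3021 distal sites with a FOXO1 region and 3078 promoter sites, which served as comparison.

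All livers came from male C57BL/6J mice on regular chow and were collected at the onset of the dark phase. According to the paper, the ctrl. mice ate freely until a last week of feeding during the night only. The cal. res. mice were calorically restricted in steps over several weeks, with food given at dark onset. The CORT mice were fed at night and received daily corticosterone injections for 1 week. The labels do not say whether the ctrl. mice received vehicle. Each group had 2 GR libraries, described in the methods as biological replicates, and FOXO1 was mapped in cal. res. liver only, as 1 list from 2 merged libraries. The absence of FOXO1 therefore refers to calorically restricted liver, and FOXO1 binding at these sites in the other groups was not analysed here. In whole liver, binding in fewer cells and weaker binding in each cell cannot be told apart.

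GR is a nuclear receptor that moves to chromatin when it binds its hormone, corticosterone in mice. It contacts DNA as a dimer at palindromic glucocorticoid response elements (GREs), and it also occupies sites that other proteins hold open. In hepatocytes, such partners include the C/EBP, HNF4 and forkhead families. FOXO1 is a forkhead factor that insulin keeps out of the nucleus and that drives glucose production and other fasting programs in liver.

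The sequences under the strongest of these sites differ in their exact matches to GR motifs. Each run below covers 200 bp around the median summit of the 6 libraries, read 5′ to 3′ on the plus strand of the RefSeq GRCm38.p6 genome (the same coordinates as mm10), and is named by the protein-coding gene with the nearest transcript start. Capitals mark a GRE palindrome, or a GR hexamer where no palindrome was found. The palindrome was searched as 2 elements, GNACA and TGTNC, 3 bases apart, and the hexamer as AGAACA, both on either strand. The first 4 runs are the sites with the highest mean rank, from chr4:45461761-45461960 (Slc25a51), chr15:88831547-88831746 (Creld2), chr11:110448947-110449146 (Map2k6) and chr3:84324979-84325178 (Trim2).
Slc25a51: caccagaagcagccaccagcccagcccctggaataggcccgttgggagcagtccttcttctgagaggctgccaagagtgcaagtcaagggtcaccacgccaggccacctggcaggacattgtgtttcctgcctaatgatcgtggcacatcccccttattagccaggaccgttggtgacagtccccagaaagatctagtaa
Creld2: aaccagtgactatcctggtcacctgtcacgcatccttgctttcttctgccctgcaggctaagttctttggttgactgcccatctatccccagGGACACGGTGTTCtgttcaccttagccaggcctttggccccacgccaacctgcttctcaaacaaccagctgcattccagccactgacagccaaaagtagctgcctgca
Map2k6: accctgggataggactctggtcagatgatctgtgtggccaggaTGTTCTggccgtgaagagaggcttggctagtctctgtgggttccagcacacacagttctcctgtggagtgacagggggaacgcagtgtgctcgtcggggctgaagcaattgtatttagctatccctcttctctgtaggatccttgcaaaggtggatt
Trim2: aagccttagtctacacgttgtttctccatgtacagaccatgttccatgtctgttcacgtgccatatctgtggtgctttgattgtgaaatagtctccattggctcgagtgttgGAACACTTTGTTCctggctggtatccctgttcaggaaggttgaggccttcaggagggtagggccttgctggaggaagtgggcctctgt

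The first of them, Slc25a51, has no exact match to either GR motif in this window, Map2k6 has a single hexamer, and Creld2 and Trim2 each have a palindrome, which in Creld2 overlaps a hexamer. The Slc25a51 window holds ggacattgtgttt, which differs from the searched palindrome in its last base only. Such near-matches were not counted. Creld2 also has a match to the NF1 palindrome, and Trim2 to the E-box CACGTG. A further 4 runs show the highest-ranked site with a palindrome near a gene of the classic glucocorticoid targets, the hepatocyte transcription factors, the circadian clock and insulin and FOXO signalling; the other 5 gene lists had no such site. They lie at chrX:140507740-140507939 (Tsc22d3), chr7:19013014-19013213 (nearest start Irf2bp1, 10.8 kb from Foxa3), chr11:90380376-90380575 (Hlf, a site that ranked only 1856 of 1998) and chr13:101812029-101812228 (Pik3r1).
Tsc22d3: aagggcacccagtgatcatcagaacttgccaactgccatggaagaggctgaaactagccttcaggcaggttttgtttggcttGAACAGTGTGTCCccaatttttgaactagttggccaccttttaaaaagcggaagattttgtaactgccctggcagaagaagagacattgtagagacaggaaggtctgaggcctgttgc
Irf2bp1: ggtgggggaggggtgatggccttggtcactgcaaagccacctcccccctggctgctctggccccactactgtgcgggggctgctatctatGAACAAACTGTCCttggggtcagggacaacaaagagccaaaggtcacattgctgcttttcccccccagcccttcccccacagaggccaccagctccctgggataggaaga
Hlf: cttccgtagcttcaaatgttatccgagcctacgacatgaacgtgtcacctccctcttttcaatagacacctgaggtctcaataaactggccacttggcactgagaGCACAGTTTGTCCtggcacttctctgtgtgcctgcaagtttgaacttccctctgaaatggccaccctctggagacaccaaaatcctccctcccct
Pik3r1: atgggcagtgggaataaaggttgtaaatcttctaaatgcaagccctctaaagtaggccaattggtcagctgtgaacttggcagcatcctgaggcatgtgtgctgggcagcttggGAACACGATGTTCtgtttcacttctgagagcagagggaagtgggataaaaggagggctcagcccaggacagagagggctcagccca

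In the Pik3r1 window the palindrome overlaps a hexamer, whereas the other 3 windows have the palindrome without it. The Irf2bp1 window also holds the nuclear receptor element AGGTCA. No window printed here has a match to the forkhead letters TGTTTAC or TATTTAC.

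The FOXO1-free distal sites lay mostly in introns. The annotation placed 1194 centres (59.8%, 95% exact binomial interval 57.6 to 61.9) in an intron, 690 (34.5%, 32.4 to 36.7) between genes, 47 in a coding exon, 47 in a UTR and 20 in a non-coding exon. Of the intronic sites, 911 (76.3%) lay inside the gene whose start was nearest. The distance to the nearest protein-coding start had a median of 18.8 kb with quartiles of 7.1 and 49.6 kb, close to the median of 20.6 kb of the distal sites with FOXO1. These intervals cover counting error only.

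Width and the spread of summits between libraries set them apart from the distal sites with FOXO1. The merged sites had a median width of 936.5 bp against 1138 bp with FOXO1 and 1287 bp at promoters, and a wider interval has more room to overlap a FOXO1 region. The summits of the 6 libraries spanned a median of 106 bp, against 74 bp with FOXO1 and 214.5 bp at promoters. Summits lay within 100 bp of each other at 48.2% of the FOXO1-free distal sites and at 62.1% of the distal sites with FOXO1. The GC content of the 200 bp window had a median of 50% against 48.5% with FOXO1 and 64% at promoters.

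FOXO1 was often not far away. The gap to the nearest FOXO1 region had a median of 16.7 kb, 505 sites (25.3%) had one within 5 kb and 27 within 500 bp. The site closest to that limit, near Ndst1, ended 149 bp from a FOXO1 region, and the constant distal site with the smallest overlap, near Igf1, shared 12 bp with one. At the promoter limit, a site in an intron of Igf1, the insulin-like growth factor gene, had its centre 1001 bp from the nearest start, and the outermost promoter site, near Usp40, 997 bp. The FOXO1 list was also the stricter one, with a largest q-value of 9.84e-06 against 0.0994 to 0.0998 in the GR lists, so that weaker FOXO1 binding at these sites would not be seen.

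The requirement of a peak in all 6 lists was limited mainly by 1 library. The lists held between 12458 (ctrl. replicate 2) and 39136 (CORT replicate 2) distinct regions, and the files used here hold no read depth per library. Of the 2929 distal sites without FOXO1 that had a peak in exactly 5 lists, 2396 lacked it in ctrl. replicate 2, against 19 to 297 for each of the others. Within the FOXO1-free distal sites, the weakest q-value of the 6 also belonged to ctrl. replicate 2 at 1390 sites (69.6%). The weakest of all, a −log10 q of 1.02 at a site near Nucks1, was found there, and that site had values of 5.46 to 14.8 in the other 5 lists. Without ctrl. replicate 2 the rule would keep 4396 sites.

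The strength of GR binding was compared as a rank, because fold enrichment, as deposited, gives the ChIP signal over its local background and is comparable only within a library. The FOXO1-free distal sites ranked below the distal sites with FOXO1 in every library. Their median percentile among all regions of a list was 82.2 and 52.9 for ctrl., 72.4 and 67.7 for cal. res., and 72.0 and 82.9 for CORT. The distal sites with FOXO1 had medians of 92.9 and 74.4, 89.0 and 86.8, and 87.9 and 91.9 in the same order. The difference averaged −15.5 ± 4.8 percentile points (SD, n = 6 libraries) and ran from −21.5 in ctrl. replicate 2 to −9.06 in CORT replicate 2. A two-sided exact sign-flip permutation test over the 6 libraries gave p = 0.03125, the smallest it allows, and 0.0625 after Benjamini-Hochberg adjustment over the 2 rank comparisons, which misses the 0.05 threshold. Both classes hold the same sites in every library, so this p refers to the libraries and not to the choice of sites. Width moved with the rank difference, and among sites of at most 1000 bp the difference was −11.7 points, lower in 6 of 6 libraries.

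**Figure D1:**
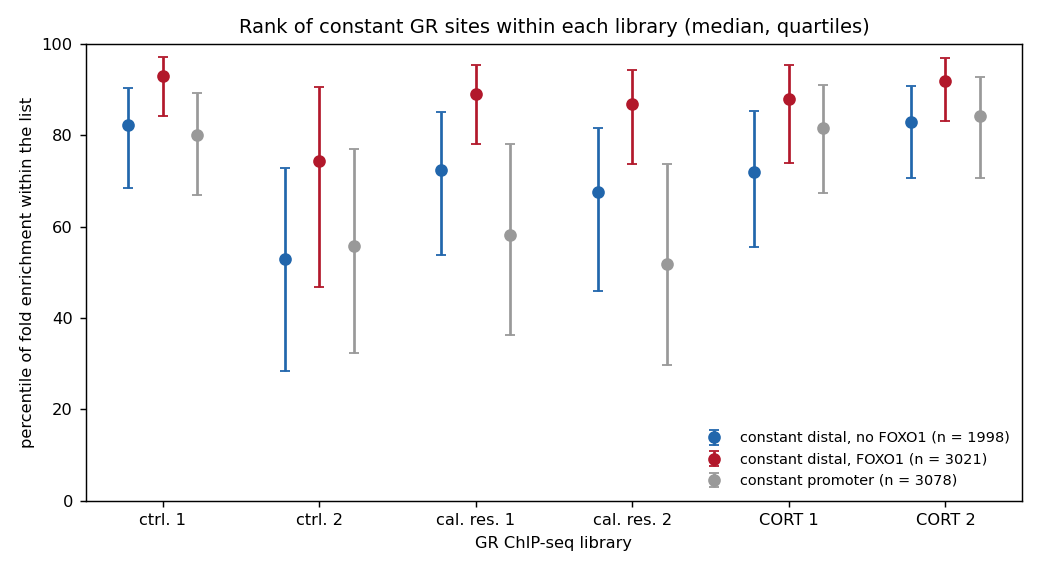
Percentile of the deposited fold enrichment within each of the 6 GR libraries (y axis) for the 3 classes of constant sites; points are medians and bars the quartiles over sites. The FOXO1-free distal sites (blue) sit below the distal sites with FOXO1 (red) in all 6 libraries, with medians of 52.9 to 82.9, and change places with the promoter sites (grey) between cal. res. and CORT.

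Few of these sites were among the strongest everywhere. Only 32 (1.60%) lay at or above the 90th percentile of all 6 lists, against 556 (18.4%) of the distal sites with FOXO1 and 115 (3.74%) of the promoter sites. In the upper part of every list, above the 50th percentile, were 721 (36.1%), against 66.0% with FOXO1 and 31.0% of promoter sites. The libraries also ordered the FOXO1-free distal sites less alike. Spearman's rho of fold enrichment over the 1998 sites ran from 0.39 between both ctrl. libraries to 0.73 between both cal. res. libraries, with 0.62 between both CORT libraries, and was lower than over the distal sites with FOXO1 in 15 of 15 library pairs. These correlations share libraries and sites and carry no test; weaker sites also span a narrower range of values.

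The gap to the FOXO1-bound sites was not shown to differ in the group in which FOXO1 was mapped. The mean of the 2 cal. res. libraries was −17.9 ± 1.74 points (SD), and that of the other 4 libraries −14.3 ± 5.62. The difference of −3.61 points gave p = 0.467 in a two-sided exact permutation test of 15 groupings, whose smallest p is 0.0667, so the design could not have passed the 0.05 threshold.

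Against promoters, the rank depended on the library. The FOXO1-free distal sites stood 14.2 and 15.8 points above the promoter sites in the cal. res. libraries, and 9.57 and 1.42 points below them in the CORT libraries . In the ctrl. libraries the difference was 2.23 and −2.77 points. Among sites of at most 1000 bp CORT replicate 2 stood 1.26 points above the promoter sites. Over all 6 libraries it averaged 3.07 ± 9.995 points (SD), and the two-sided exact sign-flip permutation test gave p = 0.4375. Library names fall into 2 styles that cross this split. Both cal. res. libraries and ctrl. replicate 2 (−2.77 points) share a style, and both CORT libraries and ctrl. replicate 1 (2.23 points) share the other. Only the ctrl. group holds both styles, so separating cal. res. against CORT from name style rests on the ctrl. libraries alone. The ctrl. library of the cal. res. style lay below both cal. res. libraries, and that of the CORT style above both CORT libraries, which was not tested.

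The 10 highest-ranked FOXO1-free distal sites had fold enrichments of 11.9 to 81.3 and stayed above the 95th percentile in every list, with a lowest percentile of 95.7. The highest lies in an intron of Shb, 53.8 kb from the start of Slc25a51, the mitochondrial NAD carrier. It had fold enrichments of 54.9 and 30.1 (ctrl.), 73.9 and 55.1 (cal. res.) and 42.6 and 81.3 (CORT), and its percentile varied least of all 1998 sites (99.6 ± 0.211, SD, n = 6). Fold enrichments are listed as deposited and differ in scale between libraries, so a direction between groups is read only from the normalized differences given further on. The Creld2 site, 12.7 kb from a gene induced by endoplasmic reticulum stress, had values of 38.4 and 20.2, 61.1 and 52.5, and 25.5 and 61.4 in the same order, and a FOXO1 region lies 798 bp away. The site in Map2k6, which encodes a kinase of the stress-activated MAP kinase pathway, had 22.2 and 21.1, 47.7 and 41.7, and 33.2 and 66.6.

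The others included sites named by Trim2, a ubiquitin ligase gene, Hnrnpll, a splicing regulator, Foxp1, a forkhead factor, Abca6, a lipid transporter family member, Jarid2, a partner of the Polycomb complex, and Plcl1. The Trim2 site, whose nearest FOXO1 region lay 109123 bp away, had fold enrichments of 47.7 and 25.6 (ctrl.), 52.4 and 40.9 (cal. res.) and 23.6 and 33.9 (CORT). The Jarid2 site, 321 kb upstream of its start, had 46.9 and 21.7, 34.2 and 22.1, and 28.5 and 30.8. Of the 10, 5 held a palindrome (Creld2, Trim2, Hnrnpll, Abca6 and Plcl1), 2 a hexamer without a palindrome (Map2k6 and Jarid2) and 3 neither, among them Slc25a51 and Foxp1. None of the 10 windows had a forkhead match.

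At the other end stood sites near Sucnr1, the succinate receptor, Pcsk6, a proprotein convertase, and Nop53, with mean percentiles of 19.8, 18.9 and 15.9. Their fold enrichments ran from 2.73 to 6.70 over all libraries. The Nop53 site, in a UTR of Ehd2, had 4.18 and 3.61 (ctrl.), 3.35 and 2.91 (cal. res.) and 5.14 and 2.89 (CORT). These weakest sites thus had a peak in all 6 lists with a summit only a few times above background.

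**Figure D2:**
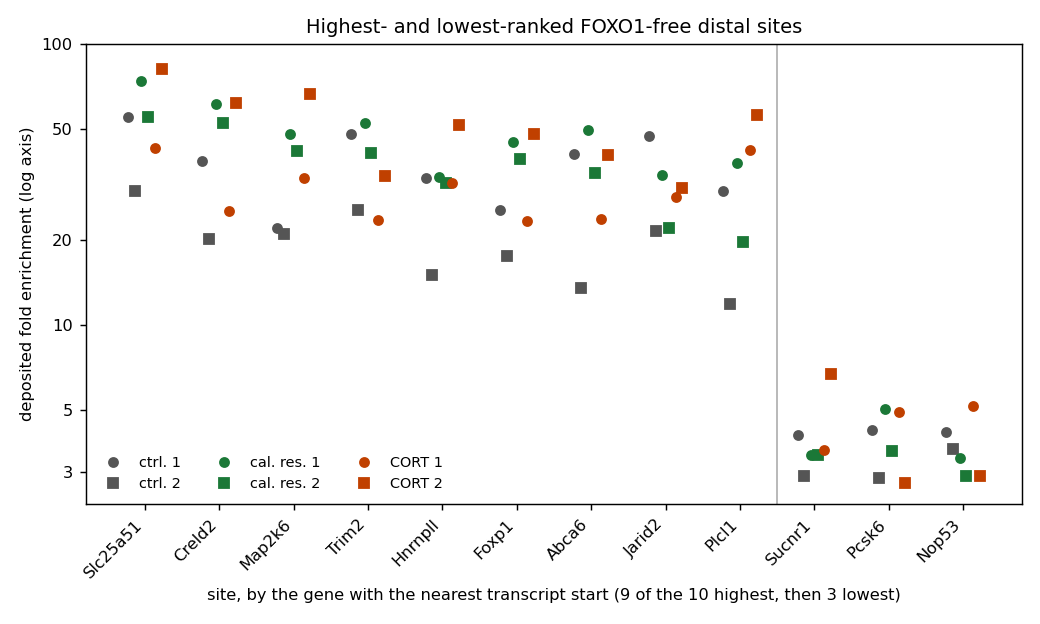
Deposited fold enrichment (y axis, log scale) of 9 of the 10 highest- and the 3 lowest-ranked FOXO1-free distal sites in each library; circles are replicate 1 and squares replicate 2, and the grey line separates both sets. The 9 high sites lie between 11.9 and 81.3 and the 3 lowest between 2.73 and 6.70.

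GR motifs were counted in the FOXO1-free distal sites and in those with FOXO1. A palindrome lay within the 200 bp window at 113 of 1998 sites (5.66%, 95% exact interval 4.68 to 6.76), against 6.62% (5.76 to 7.57) with FOXO1, 1.85% at promoters and 1.88% of all merged GR sites. Among sites of like GC content, the odds ratio against the distal sites with FOXO1 was 0.85 (95% interval 0.67 to 1.08; Mantel-Haenszel over 5 GC strata), an interval that includes 1. Among sites of at most 1000 bp it was 1.44, again with an interval that includes 1, so its direction turned with width. The hexamer was present at 24.0% (22.2 to 26.0), against 26.8% with FOXO1 and 18.3% of all merged sites, with an odds ratio of 0.92 (0.80 to 1.05), or 0.86 without GC strata, where the interval excludes 1. At 1452 sites (72.7%) neither was found as an exact match, and near-matches were not counted. The palindromes sat close to the summit, at a median distance of 20.5 bp, and 99 of the 113 lay within 50 bp. A match gives letters in a window and not a bound site, and sites are not replicates, so no p-value is given.

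The forkhead letters were the clearest difference in sequence. TGTTTAC or TATTTAC was present at 107 FOXO1-free distal sites (5.36%, 4.41 to 6.43), against 17.3% (15.9 to 18.7) of the distal sites with FOXO1, 4.71% of promoters and 8.80% of all merged GR sites. The odds ratio was 0.29 (0.23 to 0.36) against the distal sites with FOXO1. The rule used FOXO1 binding, whose known motif this is, so this is a description of the selection and not an independent finding. Against promoters the odds ratio was 0.47 (0.35 to 0.63) within GC strata and 1.14 without strata (0.89 to 1.48), so its direction turned with the handling of GC content.

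Motifs of other hepatocyte factors differed less between both kinds of distal site. The C/EBP motif TTGCNNAA was present at 20.5% (18.8 to 22.4) against 24.0% with FOXO1, with an odds ratio of 0.88 (0.77 to 1.01). It was 0.82 without GC strata and 0.87 with the window on the summit of the highest-ranked library, both with intervals that exclude 1. HNF4, searched as CAAAGTNCA, was present at 7.11% (6.02 to 8.32) against 7.08%, with an odds ratio of 1.07 (0.86 to 1.34). The STAT motif TTCNNNGAA was present at 10.4% against 11.6%, the AP-1 motif TGANTCA at 7.46% against 7.58%, and AGGTCA, which nuclear receptors bind, at 29.6% against 30.4%. Among all merged GR sites these 5 were present at 15.2%, 3.83%, 7.95%, 6.71% and 21.0%, each less than in the FOXO1-free distal sites, although the AP-1 interval of the latter (6.34 to 8.70) includes its share. Against promoters, HNF4 (odds ratio 1.60, 1.16 to 2.21) and AGGTCA (1.79, 1.52 to 2.11) had intervals above 1, and the ETS letters CCGGAA, present at 3.60% against 17.1%, had 0.36 (0.27 to 0.48). The E-box was present at 5.21% against 4.998% with FOXO1 and 4.84% of all merged sites. Matches to longer elements, searched as fixed letters, were rare. The HNF1 palindrome and the PPAR element with 2 copies of AGGTCA 1 base apart were found at 0 of 1998 sites, which allows a share of up to 0.184% for such exact matches. They were at 0.0175% and 0.121% of all merged GR sites. The NF1 palindrome and the CTCF core were found at 2 sites each. Looser forms of these elements were not searched.

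**Figure D3:**
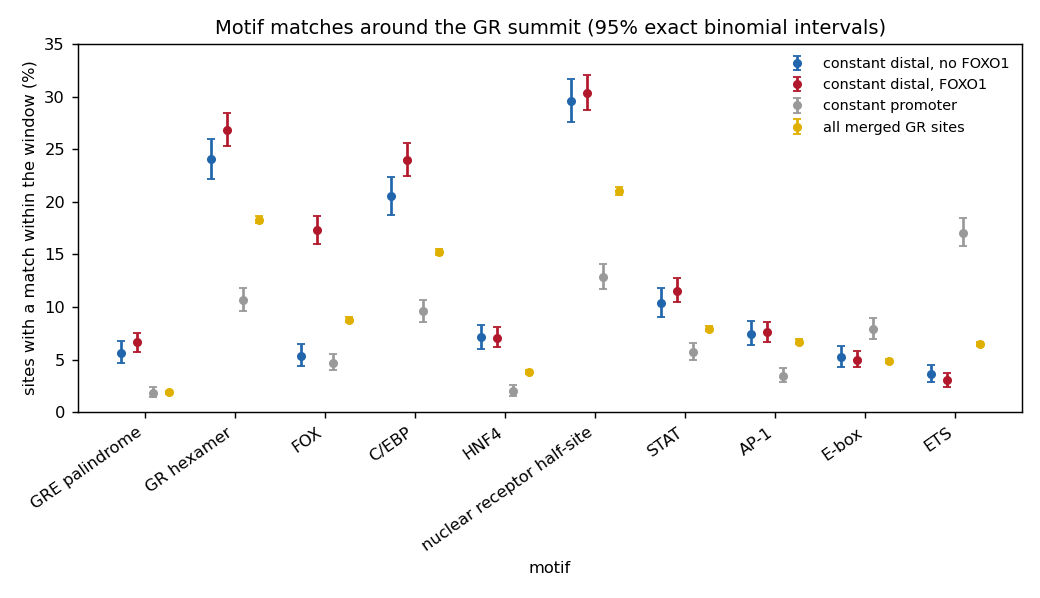
Share of sites with a motif match within 200 bp around the summit (y axis, %) for 10 of the 14 motifs searched; points are shares and bars 95% exact binomial intervals, for the 3 classes of constant sites and all merged GR sites. The forkhead motif is at 5.36% of the FOXO1-free distal sites (blue) and 17.3% of those with FOXO1 (red), while the blue and red intervals overlap or nearly meet for the other motifs.

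Within the FOXO1-free distal sites, the palindrome went with rank. The 113 sites with a palindrome had a higher median percentile than the 1885 without in 6 of 6 libraries, by 4.71 points in ctrl. replicate 1 and 29.3 in ctrl. replicate 2, 17.7 and 21.3 for cal. res., and 13.9 and 10.5 for CORT. Of the highest-ranked 200 sites, 22.0% held a palindrome and 38.0% a hexamer, against 2.51% and 18.1% of the lowest 199. Forkhead matches went the other way, at 2.5% of the highest 200 and 6.53% of the lowest 199, and the 107 sites with a match had lower medians in 6 of 6 libraries, with differences of −13.5 to −5.48 points. HNF4 showed no common direction, higher in 3 libraries and lower in 3. GC content moved little with rank, with medians of 51.0% in the highest and 49.0% in the lowest of these bins. These are descriptions over sites that share libraries, without a test.

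**Figure D4:**
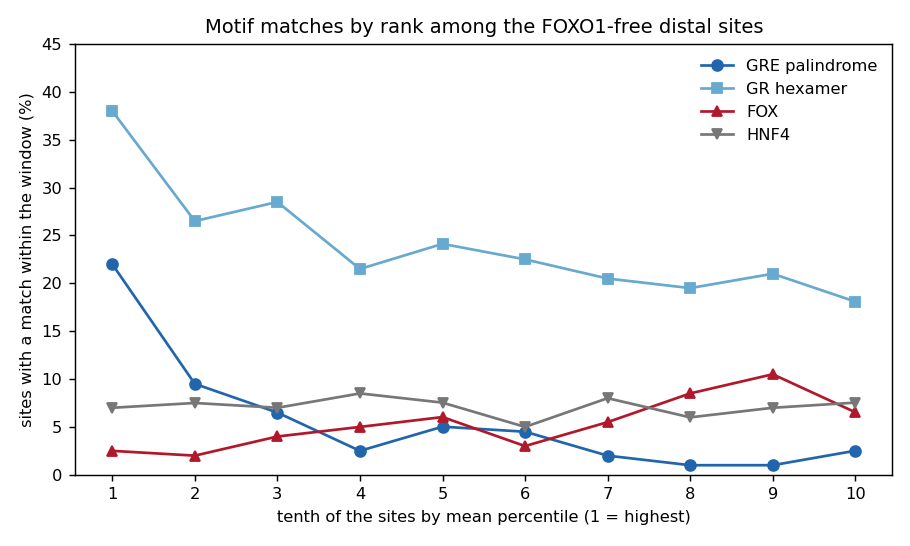
Share of FOXO1-free distal sites with a motif match (y axis, %) in 10 bins of 199 or 200 sites ordered by mean percentile over the 6 libraries (x axis, 1 is the highest). The palindrome falls from 22.0% in the highest bin to 2.51% in the lowest and the hexamer from 38.0% to 18.1%, while HNF4 stays between 5% and 8.5%.

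GR binding at these sites was then compared between the groups, on log2 fold enrichment after quantile normalization over all 8097 constant sites, with limma and Benjamini-Hochberg adjustment over all of them. The rule required a peak in every group, so sites gained or lost in a group are not among them. Caloric restriction was not called at any FOXO1-free distal site. In cal. res. against ctrl., 0 of 1998 passed an adjusted p of 0.05, with a background of 0% over all constant sites, while 167 (8.36%) had an unadjusted p under 0.05, 114 higher and 53 lower, against 811 of all constant sites (10.02%), 423 higher and 388 lower. At that unadjusted threshold, 248 distal sites with FOXO1 were higher and 52 lower, and 61 promoter sites were higher and 283 lower. Under median centring the count passing the adjusted threshold was also 0, against 22 of all constant sites (0.272%). The median difference was 0.07 on the log2 scale, with a median standard error of 0.36 per site, and no difference under 1.94 was called at these sites in any contrast.

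The smallest p among the sites higher in cal. res. belonged to a site 7.62 kb upstream of Cat, the catalase gene. It had fold enrichments of 5.43 and 2.995 (ctrl.), 11.01 and 9.05 (cal. res.) and 4.22 and 6.16 (CORT), a log2 difference of 1.47 ± 0.33 (SE) and an adjusted p of 0.27 (limma). Sites in Hs6st1, a heparan sulfate enzyme gene, and in Nfib, a nuclear factor I gene, had differences of 1.40 and 1.77, with adjusted p of 0.27 and 0.28 (limma), as had sites near Pptc7 (1.42) and Pole4 (1.57) with 0.28 each. On the lower side stood a site near Dctpp1 in a coding exon of Zfp771 (−1.65, adjusted p 0.27), and those near Foxd2, Sdr42e1, Dnajb12 and D5Ertd579e had differences of −1.25 to −1.13 with adjusted p of 0.32 to 0.34 (limma). None of these passed.

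Corticosterone treatment gave 5 calls, all higher. In CORT against ctrl., 5 of 1998 FOXO1-free distal sites (0.25%) passed, against a background of 0.198% over all constant sites, so the share was near the background; 222 (11.1%) had an unadjusted p under 0.05, 90 higher and 132 lower, against 1014 of all constant sites (12.5%), 530 higher and 484 lower. At that unadjusted threshold, 129 distal sites with FOXO1 were higher and 253 lower, and 311 promoter sites were higher and 99 lower. The FOXO1-free distal site with the smallest p lies between genes, 61.9 kb from Ogfrl1, and holds a palindrome. It had fold enrichments of 5.99 and 4.17 (ctrl.), 9.10 and 5.32 (cal. res.) and 44.8 and 55.0 (CORT), a log2 difference of 2.69 ± 0.35 (SE) and an adjusted p of 0.0115 (limma). After quantile normalization its CORT values were 38.8 and 34.5, and no other library exceeded 9.18.

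The other 4 called sites showed the same order, and over all 5 the lowest normalized CORT value was 30.9 and the highest of any other library 20.01. The sites were picked by this contrast, so CORT above ctrl. at them follows from the call. The site 57.0 kb from Rbx1, a subunit of cullin ubiquitin ligases, had 11.2 and 4.23 (ctrl.), 13.5 and 9.72 (cal. res.) and 39.1 and 65.1 (CORT), a difference of 2.18 ± 0.33 with adjusted p of 0.0260 (limma). The site in an intron of Scara5, a ferritin receptor, with its nearest start at Pbk, had 14.6 and 7.38, 22.1 and 16.6, and 63.5 and 75.9, and a difference of 1.94 ± 0.30 with adjusted p of 0.0288. It was also the only called site in the top 100 by mean rank, at rank 35.

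The site in B3galt1, a galactosyltransferase gene, holds a palindrome and lies 900 bp from a FOXO1 region. It had fold enrichments of 5.99 and 5.13 (ctrl.), 5.25 and 3.34 (cal. res.) and 38.8 and 48.9 (CORT), and a difference of 2.21 ± 0.39. The site in Slc39a14, which encodes a zinc and iron transporter of hepatocytes, had 4.63 and 6.08, 19.2 and 6.89, and 65.0 and 62.9, and a difference of 2.84 ± 0.50. Both had an adjusted p of 0.0489 (limma), just inside the threshold,. All 5 called sites were wider than 1000 bp, and leaving out either cal. res. or either CORT library left 0 calls. On the lower side, sites named above near Trim2 and Jarid2 had differences of −1.39 and −1.18, with adjusted p of 0.090 and 0.13 (limma), and sites near Lacc1, Cetn3 and Gm42791 had −1.63 to −1.40.

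**Figure D5:**
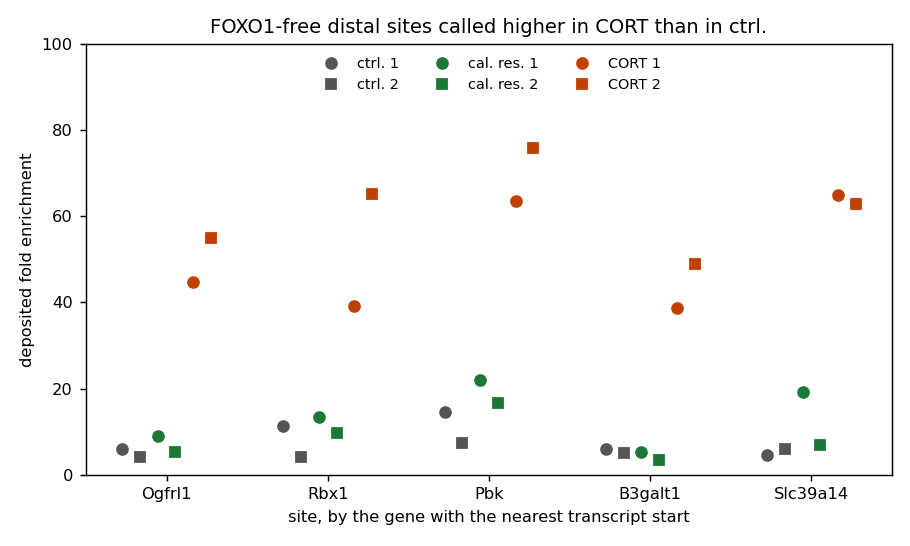
Deposited fold enrichment (y axis) in each of the 6 libraries at the 5 FOXO1-free distal sites called higher in CORT than in ctrl.; circles are replicate 1 and squares replicate 2. Both CORT values are 38.8 or more at each site, and no other library exceeds 22.1. After quantile normalization the limits are 30.9 and 20.01. The sites were picked by this contrast, so CORT above ctrl. at them follows from the call.

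Between both treatments, 2 of the same sites were called. In cal. res. against CORT, 2 of 1998 passed (0.10%, background 0.111%), both lower in cal. res.: B3galt1 with a log2 difference of −2.69 ± 0.39 and adjusted p of 0.0343, and Ogfrl1 with −2.18 ± 0.35 and 0.0380 (limma). Under median centring, which moved the median difference of all constant sites from 0.04 to 0.12, 40 sites were called, 25 higher and 15 lower, against 315 of 8097 constant sites (3.89%), so neither the count nor the split was stable to the scaling. Both calls were lost on leaving out any cal. res. or CORT library, with name style as a term and without a mean-variance trend. The next sites on the lower side were those in Gadd45g, a stress-inducible growth arrest gene (−1.87), Scp2, a sterol carrier gene (−1.85), and the Scara5 intron (−1.40), with adjusted p of 0.0637 to 0.0828. On the higher side, sites near Bcl2l11, a pro-apoptotic gene, Abhd2, Cetn3, Cat and Slco1a4 had differences of 1.42 to 1.86 and adjusted p of 0.0828 to 0.0937 (limma). This contrast shares its libraries with those above and runs along the library name style. Only the ctrl. group holds both styles, so separating the contrast from name style rests on the ctrl. libraries alone. With name style as a term the differences were −3.68 at B3galt1 and −2.68 at Ogfrl1, with adjusted p of 0.0822 and 0.0978 (limma).

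Listed genes of liver and glucocorticoid biology had a FOXO1-free distal site nearby more often than all protein-coding genes. Of 21924 protein-coding genes, 2648 (12.1%) had such a site centred within 50 kb of a transcript start. Of the 158 matched genes in 9 lists, 70 (44.3%) did, and 54 of these 70 also had a distal site with FOXO1 within 50 kb, leaving 16 with FOXO1-free sites alone. Among all 2648 genes with such a site, 1116 had both kinds and 1532 FOXO1-free sites alone. For the distal sites with FOXO1 the shares were 69.0% of the listed genes and 14.0% of all genes. The lists hold genes chosen for liver and glucocorticoid biology, with earlier results of these data known. How open or gene-rich their surroundings are was not matched.

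Among classic glucocorticoid targets, 7 of 15 genes had a FOXO1-free distal site (Per1, Fkbp5, Tsc22d3, Dusp1, Nr3c1, Nfkbia and Hsd11b1). The strongest lay 3.87 kb from the nearest start of Dusp1, a MAP kinase phosphatase gene, with fold enrichments of 22.7 and 7.54 (ctrl.), 20.2 and 18.1 (cal. res.) and 32.9 and 39.4 (CORT). Tsc22d3, which encodes the anti-inflammatory protein GILZ, had 3 sites 22.8, 35.4 and 36.9 kb downstream of its nearest start. The first had 25.3 and 5.13, 18.2 and 16.4, and 34.3 and 40.0, and the second, shown above with its palindrome, 11.6 and 5.45, 19.2 and 10.02, and 12.2 and 19.3. After normalization, CORT minus ctrl. was 0.54 at the Dusp1 site and 0.89 at the first Tsc22d3 site on the log2 scale, neither of them called.

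Gluconeogenesis and amino acid breakdown had 12 of 19 genes with a site, all 12 also with a FOXO1-bound distal site. Examples were G6pc, the last enzyme of glucose production, with a site 11.5 kb upstream (19.2 and 6.45 (ctrl.), 21.7 and 19.7 (cal. res.) and 9.96 and 23.2 (CORT)) and Tat, which breaks down tyrosine, with a site 13.6 kb downstream (13.3 and 7.70, 12.7 and 9.40, 16.8 and 31.5). The site 15.1 kb upstream of Pcx, pyruvate carboxylase, had 11.9 and 8.91, 14.7 and 8.38, and 15.5 and 18.5. None of the 20 sites near these genes held a palindrome, and 9 had a FOXO1 region within 5 kb.

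Of the hepatocyte transcription factors, 10 of 17 genes had a site. The strongest, in Ppara, a fatty acid sensor, had 19.3 and 7.70 (ctrl.), 28.6 and 25.3 (cal. res.) and 14.9 and 31.8 (CORT). The Onecut2 site, 14.1 kb upstream, had 27.7 and 5.54, 17.6 and 11.01, and 17.5 and 17.3, and the site near Foxa3 shown above 10.3 and 7.14, 15.4 and 12.4, and 14.7 and 21.4. Of the circadian clock genes, 8 of 19 had a site. In Per2, a clock repressor, the values were 20.6 and 7.49, 21.1 and 14.3, and 28.8 and 25.04, and at the stronger of 2 sites in Hlf, a clock output factor, 24.0 and 5.77, 19.9 and 16.4, and 23.8 and 29.6. The other Hlf site, shown above with its palindrome, had 5.60 and 4.44, 4.61 and 4.15, and 5.09 and 6.32. The site 34.5 kb from Tef, another output factor, has its nearest start at Tob2 and had 27.4 and 6.22, 15.9 and 10.5, and 27.4 and 43.7.

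Insulin and FOXO signalling had 6 of 18 genes with a site (Irs2, Foxo6, Igf1, Pik3r1, Trib1 and Sesn1), and 4 of these also had a FOXO1-bound distal site. The site 25.6 kb from Trib1, a pseudokinase gene, had 22.0 and 5.61 (ctrl.), 6.52 and 9.502 (cal. res.) and 18.03 and 28.7 (CORT). The Pik3r1 site with the palindrome shown above had 6.85 and 6.20, 12.6 and 7.90, and 10.2 and 11.7, and the site 12.9 kb upstream of Irs2, an insulin receptor substrate, 12.6 and 4.49, 9.76 and 5.47, and 5.53 and 7.08. In growth hormone, cytokine and STAT signalling, 6 of 13 genes had a site. The one near Cish, a feedback inhibitor of STAT5 signalling, had 10.7 and 10.9, 14.5 and 8.59, and 42.8 and 11.3, with a wide gap between both CORT libraries. Sites in Il6ra and Stat3 had mean percentiles of 74.7 and 70.8.

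Plasma protein genes carried some of the strongest sites, at 7 of 18 genes, while 15 had a FOXO1-bound distal site. Of the 7, Saa2 and Apoc3 were counted through sites listed under other genes such as Saa1 and Apoa1. A site 13.0 kb upstream of Alb, the albumin gene, ranked 14 of 1998, with 27.0 and 12.4 (ctrl.), 25.5 and 22.3 (cal. res.) and 23.6 and 37.3 (CORT). A site 3.24 kb upstream of Saa1, an acute-phase gene, had 30.4 and 6.09, 32.0 and 17.4, and 29.9 and 77.8. A second one, 6964 bp wide and reaching over the Saa1 transcript start, had 96.4 in CORT replicate 2. That is the highest fold enrichment of any FOXO1-free distal site in a library. Saa1 has near-identical neighbours, and how reads were shared among them was not tested. Lipid and bile acid metabolism had 12 of 20 genes with a site, the strongest near Cyp8b1 of bile acid synthesis (mean percentile 81.6) and Cpt1a of mitochondrial fatty acid import (78.6). Autophagy had 3 of 20 (15.0%), the share nearest to the 12.1% of all genes, near Map1lc3b (mean percentile 92.7), Atg7 (75.8) and Becn1 (68.6). The Map1lc3b site lies 29.0 kb from its nearest start, in an intron within Zcchc14.

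Several sites sometimes shared a gene. The 1998 sites had 1548 nearest genes, 1222 of them with a single site. Nfib had the most, 8 sites that all lay in its introns, from 7.22 kb upstream to 112.7 kb downstream of the nearest start, with mean percentiles from 34.97 to 93.9. A further 6 genes (Arid5b, Lacc1, Lpp, Rbm47, Rreb1 and Arid1b) had 5 or 6 sites each; these genes were picked after their counts were seen, and sites near 1 gene are not independent of each other.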

How the data were processed

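For GR, 6 ChIP-seq peak lists from liver (2 for each of ctrl., cal. res. and CORT), and 1 FOXO1 list of cal. res. liver (2 libraries merged) were used, grouped by their labels. Per the study's methods and processing notes, the authors aligned reads to mm10 with BWA, removed duplicates and multimapping reads with Picard, and called peaks with MACS2, followed by bedtools; whether an input control was used is not given in the sources used here. Fold enrichment, as deposited, is the ratio of the summit's signal to its local background. The deposited −log10 p-values and −log10 q-values come from the peak caller, as does the summit offset, a position in bp. Read depth was not analysed here; list sizes stand in for it, and the number of regions limits precision.

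Of rows with the same start and end, the one with the highest fold was kept, overlapping regions (at least 1 bp) were merged, and the highest fold of a library represented a site. Peak ends lay within GRCm38 lengths; genes came from GENCODE M21 basic. Fold was ranked within each list as a percentile. Within-library differences of median percentile were tested with exact permutation tests. Groups were compared with limma (3.58.1, R 4.3.3) with a mean-variance trend on quantile-normalized log2 fold over 8097 constant sites. All groups shared 1 estimate of the spread. The limma p-values set a difference against the spread within groups, moderated over sites. The permutation p-values set it against sign flips or regroupings of these libraries. Motifs were searched in 200 bp windows at 51428 of 51431 sites, with pysam 0.24.0; the other 3 lie on other sequences. Shares carry Clopper-Pearson 95% intervals. SciPy 1.17.1, pandas 2.3.3 and NumPy 2.4.6 in Python 3.11.15 were used, with matplotlib 3.10.9 for plots. The scripts were tested on simulated data.

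Named sites were the 10 highest and 3 lowest by mean percentile, up to 5 per direction and contrast with the smallest p, up to 3 within 50 kb of a gene of each of 9 lists, and those closest to each limit. Of these, 2 sites are not reported here. Sequences followed the same order, and chromosome 18 and UTR centres were left out. The sites, gene lists and motifs were chosen with earlier results of these data known. Alternatives covered peak stringency, list size, overlap, promoter window, width, ranking, scaling, the model, motif windows, distances and leaving out each library. The crossed replicate block was added after seeing the data.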

Additional observations from a re-analysis of the deposited data

Results flagged for a closer look

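The rank of the FOXO1-free distal sites against the promoter sites had opposite signs in both treated groups. The median percentile of the FOXO1-free distal sites minus that of the promoter sites averaged 15.0 points in the cal. res. libraries (14.2 and 15.8) and −5.49 points in the CORT libraries (−9.57 and −1.42). Every cal. res. library lay above 0 and every CORT library below it, except that CORT replicate 2 lay at 1.26 among sites of at most 1000 bp and at 0.725 with the stronger 50% of FOXO1 peaks. A two-sided exact permutation test of 2 against 2 libraries gave p = 0.333, the smallest it allows, so the difference could not pass the threshold in this design. Set against all 4 other libraries, cal. res. was 17.9 points higher with an exact permutation p of 0.0667, again the smallest possible. Both groups also differ in library name style, and its part in the result was not tested. The ctrl. libraries stood at 2.23 and −2.77 points, the latter below CORT replicate 2. The promoter sites shifted most, with a mean of library medians of 67.8 (ctrl.), 55.0 (cal. res.) and 82.9 (CORT). The FOXO1-free distal sites had 67.6, 70.0 and 77.4, and the distal sites with FOXO1 83.6, 87.9 and 89.9 (SD up to 20.7, n = 2 each).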

How the results depend on the processing

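The FOXO1-free distal sites ranked below the distal sites with FOXO1 in every library under all 15 alternatives run, with mean differences of −11.7 (sites of at most 1000 bp) to −27.8 points (percentile among constant sites); with 1 library left out it was −19.1 to −16.0, and p cannot go below 0.0625 with 5. Against promoters the mean difference turned to −2.32 with equal list sizes and, without ctrl. replicate 2, to −0.89; with 1 library left out it was −0.89 to 4.50, at up to 1000 bp 9.10 and with the stronger 50% of FOXO1 peaks 6.57. The gap in cal. res. against the other libraries, −3.61, turned to 0.32 with equal list sizes, was −0.53 with the percentile among constant sites, and −8.53 without ctrl. replicate 2 to −2.04 without CORT replicate 2. The number of sites was 1012 with equal list sizes, 1110 at up to 1000 bp, 3073 with the stronger 50% of FOXO1 peaks, and 2039 to 4396 with 1 library left out, the highest without ctrl. replicate 2.

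Cal. res. against ctrl. kept 0 calls in all alternatives. For CORT against ctrl. the 5 calls became 3 with the replicate number as a block (Slc39a14 and B3galt1 then had adjusted p of 0.0603 and 0.0674, limma), 9 with name style as a term, 2 without a trend, 3 at a mean fold of at least 5, 0 at up to 1000 bp, and 0 to 9 with 1 library left out (0 without either cal. res. or CORT library, 9 without ctrl. replicate 2). For cal. res. against CORT the 2 calls became 40 under median centring (3.89% of all constant sites), 0 with the replicate block, name style, no trend or up to 1000 bp, and 0 to 32 with 1 library left out (30 and 32 without ctrl. replicate 1 and 2, against 3.12% and 3.25% of all constant sites, 0 without any other). The remaining sample of a group is then assumed to vary like the others. Replicate numbers did not pair the libraries: same-numbered deviations correlated at −0.11, −0.14 and 0.13. With the ctrl. numbers crossed, an alternative chosen after seeing the data, the block gave 9 and 10 calls. The cause of these changes was not tested, except that up to 1000 bp fewer sites were tested.

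The forkhead odds ratio against promoters turned to 1.14 without GC strata. The palindrome against promoters, 1.60, became 1.81 at up to 1000 bp with an interval that includes 1. At 10 kb, 39 of 158 listed genes had a site (24.7%, against 3.30% of all genes). Read depth was not analysed here.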
